A study of Mus musculus with 12 samples.

Results

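The genes described here encode the cargo receptor and core machinery of macroautophagy in BV2 cells, an immortalised mouse line used as a model of microglia, the resident phagocytes of the brain. Rows were taken by gene symbol for 10 genes, Sqstm1, Map1lc3b, Gabarapl1, Gabarapl2, Ulk1, Becn1, Atg5, Atg7, Wipi1 and Tfeb, out of 22935 genes listed in each of 2 count tables. All 10 were found in both tables and all 10 passed the filter on low counts, as did 14146 genes in all. The series title places the experiment in work on the C3/C3aR complement pathway after subarachnoid haemorrhage, and oxyhaemoglobin (oxy-Hb) is the blood product applied to the cells. The groups compared were oxy-Hb with C3a, the small complement fragment that binds the C3a receptor (labelled 20 ug/ul), oxy-Hb with C3aRA (50 uM; the labels give no full name), and oxy-Hb alone, each with 3 libraries. All 3 groups carried oxy-Hb at 10 uM, so nothing below compares cells with and without it, and 3 samples labelled PBS were not analysed here. The time of treatment is not stated in the labels. The cells are 1 line, and no label says whether the replicates were separate cultures, so each p-value reflects only how far these libraries varied, part of which may be technical.

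In macroautophagy a membrane cup grows around cytoplasmic cargo, closes into an autophagosome and fuses with a lysosome. A kinase complex around ULK1 starts the process, and a lipid kinase complex that contains Beclin 1 marks the membrane with a phosphoinositide read by WIPI proteins. ATG7 and the ATG5 conjugate help attach small ATG8 proteins (LC3 and GABARAP families) to the membrane, where receptors such as p62, the product of Sqstm1, dock their cargo. TFEB is a transcription factor for lysosomal and autophagy genes, and Sqstm1 is also a known target of NRF2, the factor of the oxidative stress response. In microglia the pathway handles engulfed and damaged material. Transcript levels do not measure autophagic flux, since p62 and LC3 proteins are themselves degraded by the process.

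Promoter windows are shown for the 3 genes on which the group differences turn, Sqstm1, Ulk1 and Atg5. They come from RefSeq (GRCm38.p6) and run from 250 bases before to 50 after the annotated start, 5′ to 3′ on the gene's own strand. The windows are chr11:50210771-50211070 on the minus strand for Sqstm1, chr5:110810032-110810331 on the minus strand for Ulk1 and chr10:44268089-44268388 on the plus strand for Atg5. Capitals mark the motif CACGTG, the core of the E-box that TFEB and its relatives bind.
Sqstm1: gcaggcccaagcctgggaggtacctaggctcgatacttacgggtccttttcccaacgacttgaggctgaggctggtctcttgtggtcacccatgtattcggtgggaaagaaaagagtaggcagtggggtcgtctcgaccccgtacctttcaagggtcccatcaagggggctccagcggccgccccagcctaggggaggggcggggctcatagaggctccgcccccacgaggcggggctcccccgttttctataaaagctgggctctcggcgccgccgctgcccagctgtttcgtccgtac
Ulk1: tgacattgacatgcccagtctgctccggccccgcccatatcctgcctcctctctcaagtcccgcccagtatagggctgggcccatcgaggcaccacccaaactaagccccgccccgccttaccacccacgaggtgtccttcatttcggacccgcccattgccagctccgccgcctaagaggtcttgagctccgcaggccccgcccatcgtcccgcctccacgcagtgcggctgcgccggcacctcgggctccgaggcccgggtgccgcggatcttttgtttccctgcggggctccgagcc
Atg5: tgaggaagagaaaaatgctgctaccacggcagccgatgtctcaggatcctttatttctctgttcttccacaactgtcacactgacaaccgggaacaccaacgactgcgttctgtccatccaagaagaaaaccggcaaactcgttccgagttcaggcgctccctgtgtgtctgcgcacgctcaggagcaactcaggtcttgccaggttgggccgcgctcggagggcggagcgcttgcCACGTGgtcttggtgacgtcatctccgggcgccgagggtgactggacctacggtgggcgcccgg
The table held windows for 9 of the 10 genes. CACGTG, searched on both strands, occurred in the window of Atg5, where it begins at offset -14 from the start base, and in that of Atg7, at offset -132. The Atg7 window, chr6:114670846-114671145, lies within the annotated gene, not at its outer start. It occurred in 7.15% of all 32851 windows. TGACNNNGC, the core of the NRF2 response element, was also searched on both strands and occurred only in the Map1lc3b window among these genes, at offset 4, against 12.4% of all windows. Neither motif was in the Sqstm1 or Ulk1 window. A match here is a run of letters, not a bound site.

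The libraries held 12934794 to 20479002 counts. Levels are TMM-scaled CPM, the counts of a gene relative to the scaled library total. The floor, marker and ribosomal values in this paragraph are CPM of the unscaled total instead. On that scale 3 counts, the floor, were worth 0.147 to 0.232 CPM. Of 12 microglial markers, Cd68 (804 to 1004 CPM) and Ptprc (379 to 496 CPM) were high, while P2ry12 and Tmem119, typical of microglia in the brain, and Aif1 stayed under 3.91 CPM in every library. In bulk RNA such as this, fewer cells of a type and less RNA per cell cannot be told apart. C3a replicate 2 stood apart from the other 8 libraries. Its score on the first principal component was 84.3, against -25.2 to 9.85 elsewhere, and 86 genes for ribosomal proteins took 56630 CPM of it, compared with 36450 to 41610 CPM of any other library. The part of this library's state in the results was not tested, and fits without it are among the alternatives given.

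Ranked by CPM per kilobase of principal transcript, Sqstm1 was the most abundant of the 10 genes at 237.7 ± 72.3 over the 9 libraries (SD), followed by Map1lc3b at 61.5 ± 10.4. The next were Gabarapl2 at 32.3 ± 6.70, Atg5 at 24.4 ± 3.65 and Gabarapl1 at 23.3 ± 2.98. Gabarapl2 lay above both of these in 9 of 9 libraries, whereas Atg5 lay above Gabarapl1 in 5 of 9, and their means differed by less than their spread. Atg7 (11.0 ± 1.54) lay above Becn1 (9.38 ± 1.22) in 7 of 9 libraries. Tfeb (3.15 ± 0.469), Wipi1 (2.58 ± 0.728) and Ulk1 (2.08 ± 0.636) were the lowest, and each differed from the next by less than the larger SD. This order depends on the transcript chosen for several genes. Per kilobase of all annotated exons Map1lc3b averaged 20.7, Gabarapl1 21.1, Gabarapl2 23.3 and Atg5 24.4 CPM. On that scale Ulk1, at 1.67 CPM, lay above Tfeb at 1.275 and Wipi1 at 1.20 CPM.

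**Figure D1:**
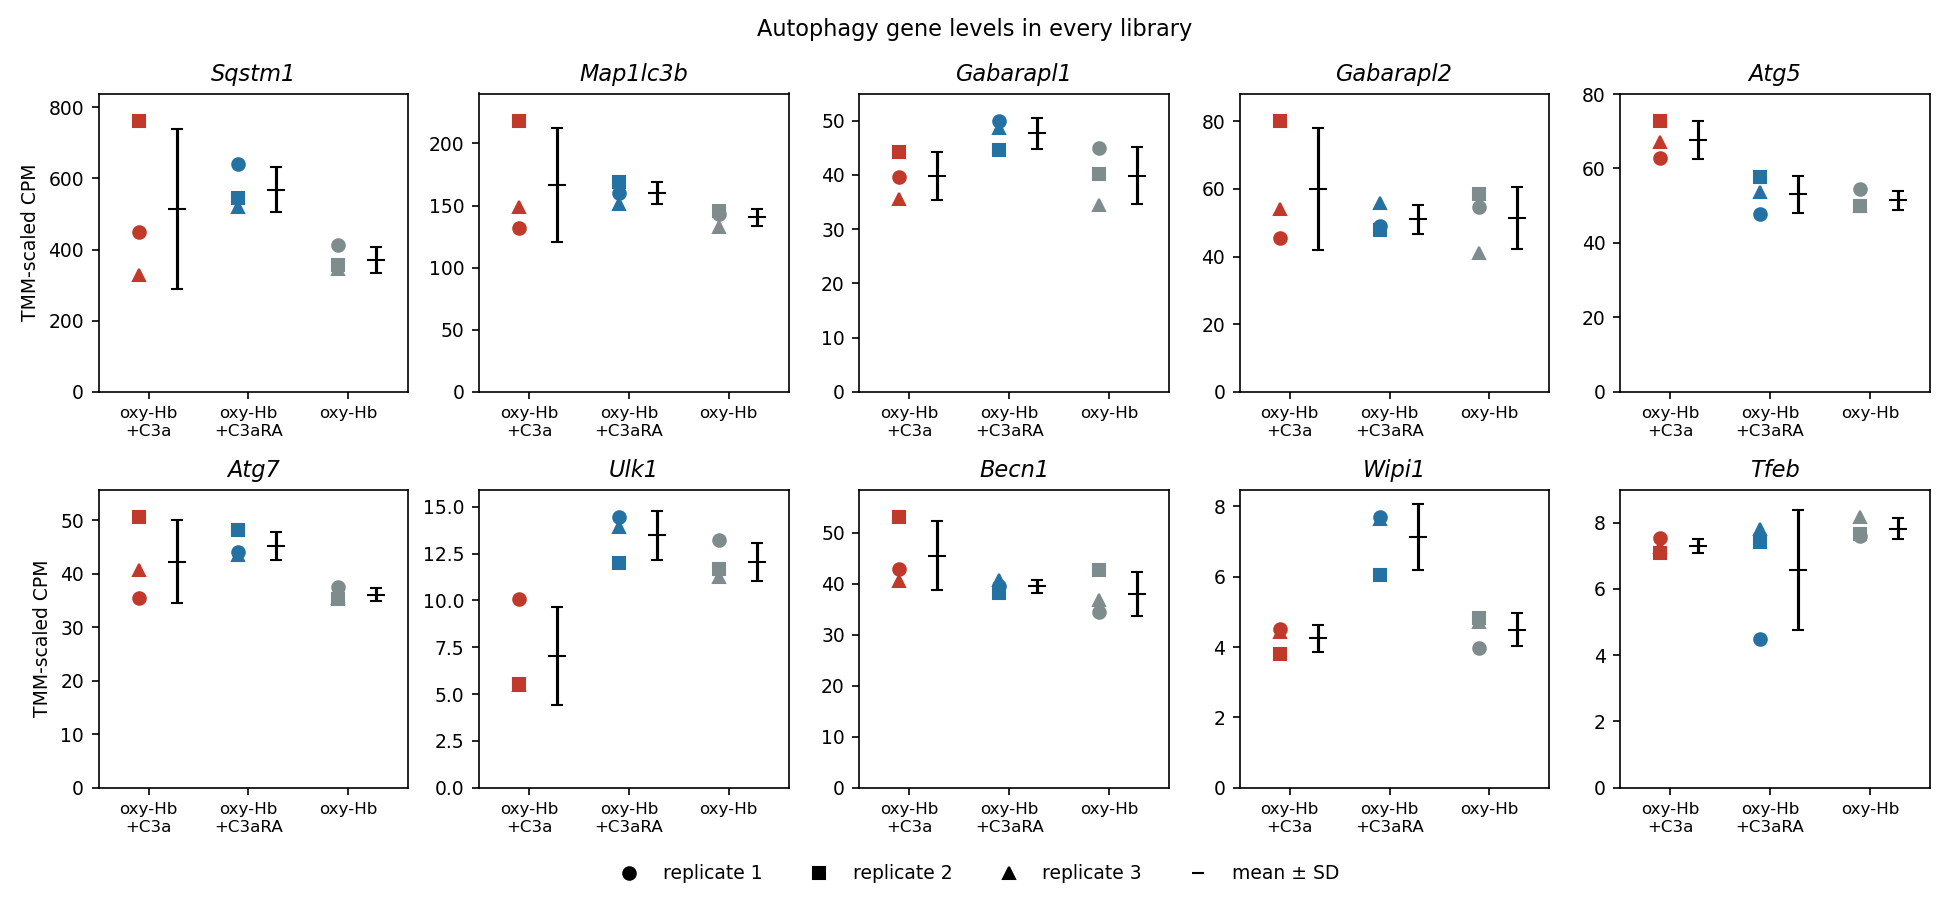
TMM-scaled CPM of each gene in the 9 libraries (vertical axes, each from 0), by group: oxy-Hb with C3a, oxy-Hb with C3aRA, and oxy-Hb alone. Symbols mark the replicate number and bars the mean ± SD of 3 libraries. C3a replicate 2 is the highest point of all for 6 genes, with 762 CPM for Sqstm1.

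Sqstm1 encodes p62, which binds ubiquitinated cargo and ATG8 proteins and also holds KEAP1, the inhibitor of NRF2 (ENSMUSG00000015837, chr11:50199366-50210827, minus strand, GRCm38). It had 450, 762 and 327 CPM with C3a, 640, 545 and 520.0 CPM with C3aRA, and 412, 356 and 346 CPM in oxy-Hb alone. All 3 C3aRA libraries lay above all 3 oxy-Hb libraries, while the C3a libraries covered the range of both. With C3aRA the mean was 568 ± 63.4 CPM, against 371 ± 35.8 CPM in oxy-Hb (SD, n = 3 each), or 0.62 ± 0.24 (SE) as a log2 fold change. When all 9 libraries were fitted, edgeR's quasi-likelihood test gave it an adjusted p of 0.549 (Benjamini-Hochberg over all tested genes), so it was not called. Fitted on the C3aRA and oxy-Hb libraries alone, the log2 fold change was 0.61 with an edgeR adjusted p of 3.17e-05. Without C3a replicate 2 it was again 0.61, with an edgeR adjusted p of 0.019. DESeq2 on all 9 libraries gave an adjusted p of 0.302, and the authors' deposited table lists 0.62 with an adjusted p of 1.04e-09. The estimate was nearly the same in each of these fits, and edgeR made the call in the fits that did not hold C3a replicate 2.

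With C3a, Sqstm1 averaged 513 ± 224 CPM, against 371 ± 35.8 CPM in oxy-Hb, a log2 fold change of 0.47 ± 0.24 with an edgeR adjusted p of 0.253. C3a replicate 2 held 1.96 times the mean of the other C3a libraries. Without it the log2 fold change was 0.063 with an edgeR adjusted p of 0.823. Between the additions, C3a against C3aRA gave -0.15 (edgeR adjusted p 0.745), and -0.55 (edgeR adjusted p 0.0165) without C3a replicate 2. The counts behind these levels were 5536 to 14643 per library. Sqstm1 shares 580 exonic bases with Mrnip on the opposite strand, whose own count never passed 191.

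Map1lc3b encodes LC3B, the ATG8 protein most used as a marker of autophagosomes (ENSMUSG00000031812, chr8:121590361-121598760, plus strand). It had 132, 218 and 149 CPM with C3a, 160.0, 169 and 151 CPM with C3aRA, and 143, 146 and 133 CPM in oxy-Hb alone. The C3aRA libraries again lay above all oxy-Hb libraries, by a small margin, and only C3a replicate 2 lay well outside the common range. The log2 fold change was 0.24 ± 0.15 with C3a (edgeR adjusted p 0.339) and 0.19 ± 0.15 with C3aRA (edgeR adjusted p 0.786). Without C3a replicate 2 the C3a value was -0.0076, and with the effects of length and GC of transcripts fitted out, a correction that moved the median of all genes by 0.10, it was 0.40 (edgeR adjusted p 0.16). Map1lc3b shares 58 exonic bases with Zcchc14, an expressed gene on the opposite strand.

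Gabarapl1, an ATG8 gene of the GABARAP family (ENSMUSG00000030161, chr6:129533160-129542346, plus strand), had 39.7, 44.3 and 35.5 CPM with C3a, 50.0, 44.5 and 48.6 CPM with C3aRA, and 45.0, 40.2 and 34.4 CPM in oxy-Hb alone. Its C3a libraries all lay below its C3aRA libraries, with 44.3 CPM next to 44.5 CPM at the boundary. C3a against C3aRA gave a log2 fold change of -0.26 ± 0.13 (edgeR adjusted p 0.239). Its C3a and oxy-Hb means, 39.8 ± 4.40 and 39.9 ± 5.29 CPM, differed by less than their spread.

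Gabarapl2, also called GATE-16 (ENSMUSG00000031950, chr8:111940703-111953612, plus strand), had 45.5, 80.2 and 54.1 CPM with C3a, 49.2, 47.8 and 56.0 CPM with C3aRA, and 54.7, 58.5 and 41.1 CPM in oxy-Hb alone. The groups overlapped in every comparison, and the C3aRA log2 fold change of -0.012 carried an SE of 0.19. With C3a it was 0.22 (edgeR adjusted p 0.491), and -0.053 without C3a replicate 2. Within the 3 ATG8 genes, Map1lc3b made up 53.0% ± 1.47 of the summed level per kilobase with C3a, 52.8% ± 2.93 with C3aRA and 51.5% ± 2.75 in oxy-Hb alone (SD, n = 3 each). For that gene the groups differed by less than the spread between replicates. The shares depend on the principal transcript, since per kilobase of all annotated exons Map1lc3b was the lowest of these 3 genes (20.7 CPM). On that scale Gabarapl1 had 21.1 and Gabarapl2 23.3 CPM, as means of the 9 libraries. Gabarapl1 made up 18.2% ± 3.16 with C3a, 21.9% ± 1.29 with C3aRA and 20.25% ± 1.31 in oxy-Hb alone, and Gabarapl2 28.75% ± 1.69, 25.4% ± 2.16 and 28.2% ± 2.47 (SD, n = 3 each), and these differences between the additions were not tested. Gabarap, the namesake of that family and outside the 10, showed the same high library, with 387 CPM in C3a replicate 2 and 172 to 245 CPM in the other 8.

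Atg5 encodes the protein that, joined to ATG12, promotes attachment of ATG8 proteins to lipid (ENSMUSG00000038160, chr10:44268358-44364291, plus strand). It had 62.8, 72.8 and 67.1 CPM with C3a, 47.8, 57.7 and 53.6 CPM with C3aRA, and 54.4, 50.0 and 49.9 CPM in oxy-Hb alone. All C3a libraries lay above all 6 others, and C3a replicate 2 was close to its companions. The means were 67.6 ± 5.05 CPM with C3a and 51.4 ± 2.56 CPM in oxy-Hb (SD, n = 3 each), a log2 fold change of 0.40 ± 0.11 with an edgeR adjusted p of 0.0625. Without C3a replicate 2 it was 0.33 with an edgeR adjusted p of 0.0406, and DESeq2 on all libraries gave an adjusted p of 0.0193. No call was made on the 2 groups alone (edgeR adjusted p 0.165) or with the length and GC correction (0.34, edgeR adjusted p 0.058). Nor was Atg5 called by limma-voom (adjusted p 0.0577), and the authors' deposited table lists an adjusted p of 0.0925. C3a against C3aRA gave 0.35 ± 0.11 (edgeR adjusted p 0.0793). With C3aRA the mean was 53.1 ± 4.98 CPM, and its log2 fold change over oxy-Hb was 0.047 ± 0.11.

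Atg7, the E1-like enzyme that activates ATG8 proteins and ATG12 (ENSMUSG00000030314, chr6:114643097-114860614, plus strand), had 35.5, 50.7 and 40.7 CPM with C3a, 44.1, 48.3 and 43.5 CPM with C3aRA, and 37.5, 35.2 and 35.6 CPM in oxy-Hb alone. Here the C3aRA libraries lay above the oxy-Hb libraries, at 45.3 ± 2.61 against 36.1 ± 1.23 CPM (SD, n = 3 each). The log2 fold change of 0.33 ± 0.13 had an edgeR adjusted p of 0.565 in the fit of 9 libraries and 0.0623 on the 2 groups alone. The authors' deposited table lists an adjusted p of 0.0368 for it. With C3a the log2 fold change was 0.23 ± 0.13 (edgeR adjusted p 0.308), and 0.072 without C3a replicate 2 or 0.39 with the length and GC correction. C3a against C3aRA gave -0.098, and -0.26 (edgeR adjusted p 0.161) without that library or 0.0029 with the correction. Per kilobase, the level of Atg5 was 2.59 ± 0.270 times that of Atg7 with C3a, 1.87 ± 0.125 times with C3aRA and 2.28 ± 0.0384 times in oxy-Hb alone. The ratios of the C3aRA libraries, 1.73 to 1.97, did not overlap those with C3a, 2.30 to 2.83, or those in oxy-Hb, 2.24 to 2.32. Among single genes, 28.8% of all tested genes did not overlap between C3a and C3aRA, and 22.9% between C3aRA and oxy-Hb. The share among ratios of genes was not worked out, and the ratio was not tested.

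**Figure D2:**
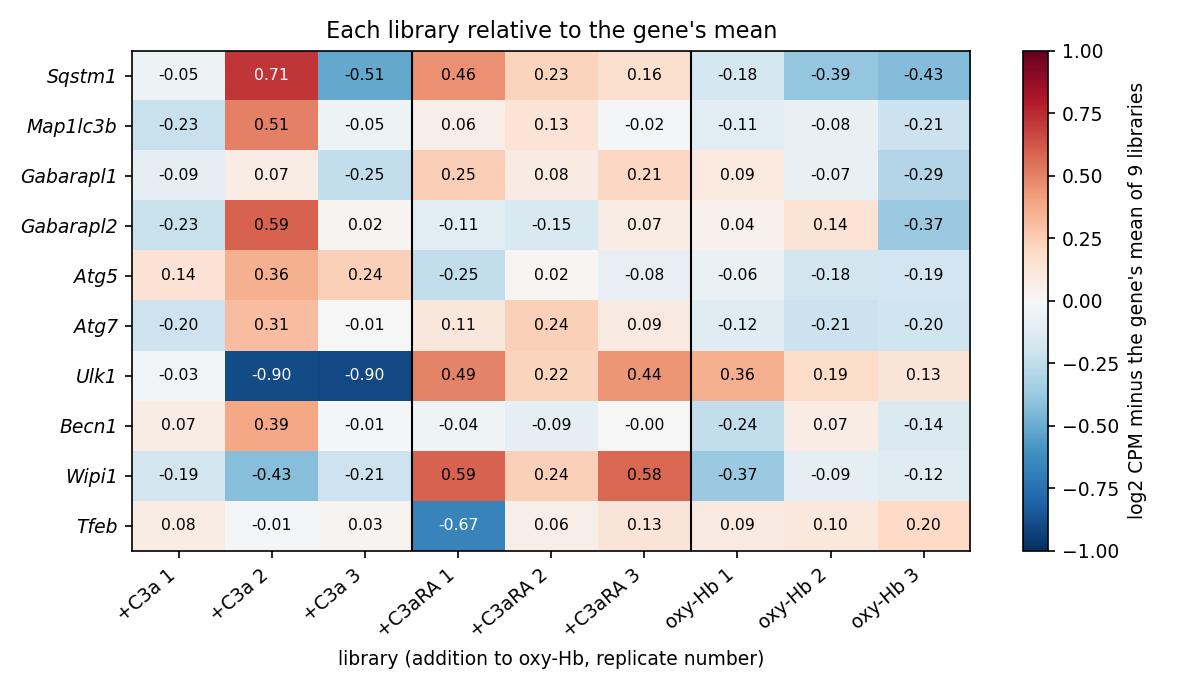
Log2 CPM of each gene in each library minus that gene's mean over the 9 libraries (colour and printed number), with libraries ordered by group from left to right. Sqstm1 is 0.71 above its mean in C3a replicate 2 and -0.51 in C3a replicate 3, and Ulk1 is at -0.90 in both.

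Ulk1 encodes the kinase that starts autophagosome formation (ENSMUSG00000029512, chr5:110784488-110810097, minus strand). It had 10.1, 5.52 and 5.50 CPM with C3a, 14.5, 12.01 and 13.9 CPM with C3aRA, and 13.2, 11.7 and 11.2 CPM in oxy-Hb alone. Every C3a library lay below the other 6, and C3a replicates 2 and 3 were nearly equal. Ulk1 was lower with C3a than with C3aRA, at 7.03 ± 2.63 against 13.5 ± 1.29 CPM (SD, n = 3 each), a log2 fold change of -0.94 ± 0.23 with an edgeR adjusted p of 0.0299. Against oxy-Hb, at 12.04 ± 1.03 CPM, C3a gave -0.78 ± 0.23 with an edgeR adjusted p of 0.0667, and DESeq2 gave an adjusted p of 0.0201. Without C3a replicate 2 it was -0.63 (edgeR adjusted p 0.0557), and on the 2 groups alone -0.79 (edgeR adjusted p 0.168). With C3aRA the value over oxy-Hb was 0.16 ± 0.22 (edgeR adjusted p 0.888), or 0.27 with the length and GC correction. Its principal transcript, at 5213 bases, is the longest of the 10, and adjusting for length and GC of transcripts gave -0.73 (edgeR adjusted p 0.0367) between the additions and -0.45 (edgeR adjusted p 0.15) against oxy-Hb. Without C3a replicate 2 the value between the additions was -0.79 (edgeR adjusted p 0.0123). Between the additions the call was lost on the 2 groups alone (edgeR adjusted p 0.0943) and held in 4 of 9 fits that left out 1 library. It was lost without C3a replicate 3 (edgeR adjusted p 0.0832), without C3aRA replicate 1, 2 or 3 (0.131, 0.0679 and 0.102) and without oxy-Hb replicate 2 (0.0526). The counts behind it were 93 to 241 per library.

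Becn1 encodes Beclin 1 of the lipid kinase complex (ENSMUSG00000035086, chr11:101285952-101302286, minus strand). It had 42.8, 53.1 and 40.4 CPM with C3a, 39.6, 38.1 and 40.6 CPM with C3aRA, and 34.4, 42.7 and 36.8 CPM in oxy-Hb alone. The groups overlapped in every comparison. The log2 fold change was 0.26 ± 0.13 with C3a (edgeR adjusted p 0.245), or 0.12 without C3a replicate 2, and 0.053 ± 0.13 with C3aRA (edgeR adjusted p 0.946). Becn1 shares 3104 exonic bases with Cntd1 on the opposite strand, which had at most 21 counts.

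Wipi1, a reader of the phosphoinositide on the growing membrane (ENSMUSG00000041895, chr11:109573331-109611967, minus strand), had 4.50, 3.80 and 4.43 CPM with C3a, 7.71, 6.04 and 7.63 CPM with C3aRA, and 3.96, 4.81 and 4.70 CPM in oxy-Hb alone. Its 3 C3aRA libraries stood above all 6 others. With C3aRA the mean was 7.12 ± 0.944 CPM, against 4.49 ± 0.464 CPM in oxy-Hb (SD, n = 3 each), a log2 fold change of 0.66 ± 0.22. The edgeR adjusted p was 0.494 in the fit of 9 libraries and 0.0956 on the 2 groups alone. C3a against C3aRA gave -0.75 ± 0.22 with an edgeR adjusted p of 0.0617, and DESeq2 gave 0.0225. The counts behind it were 63 to 132 per library.

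Tfeb (ENSMUSG00000023990, chr17:47737030-47792419, plus strand) had 7.52, 7.08 and 7.27 CPM with C3a, 4.48, 7.42 and 7.80 CPM with C3aRA, and 7.61, 7.67 and 8.18 CPM in oxy-Hb alone. C3aRA replicate 1 alone was low, and the C3a libraries lay below the oxy-Hb libraries by less than 1 CPM. The log2 fold change was -0.10 ± 0.22 with C3a (edgeR adjusted p 0.814) and -0.24 ± 0.22 with C3aRA (edgeR adjusted p 0.812). With the length and GC correction these were 0.22 with C3a and -0.045 with C3aRA, so the direction with C3a turned. The counts behind Tfeb were 57 to 145 per library.

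Across the 10 genes, none was called for C3a against oxy-Hb by edgeR, where 3.94% of all tested genes were called, and 2 had an unadjusted p under 0.05, Atg5 and Ulk1. These are measured against 24.1% of all tested genes at that unadjusted level. DESeq2 called these same 2, where it called 9.56% of all tested genes, and limma-voom, which called 4.43%, called none. With the length and GC correction edgeR called none, and 6 of the 10 had an unadjusted p under 0.05, beside 28.2% of all tested genes. With it 9 of the 10 values were positive, against 6 without it, but it also moved the median of all tested genes to 0.10. The positive values of Gabarapl1 (0.051) and Wipi1 (0.0039) lay below that median. Without C3a replicate 2 edgeR called Atg5 alone, where 9.55% of all tested genes were called. Fitted on the 2 groups alone, edgeR called none of the 10 and 0.72% of all tested genes. The median log2 fold change of the 10 was 0.23, beside 0.00 over all tested genes, and without C3a replicate 2 it was -0.01. Groups did not overlap for 1 higher gene (Atg5) and 2 lower genes (Ulk1, and Tfeb, whose direction the correction turned), where 27.8% of all tested genes did not overlap, 13.2% higher and 14.6% lower. C3a replicate 2 was the highest of the 9 libraries for 6 of the 10 genes, against 26.7% of all tested genes.

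**Figure D3:**
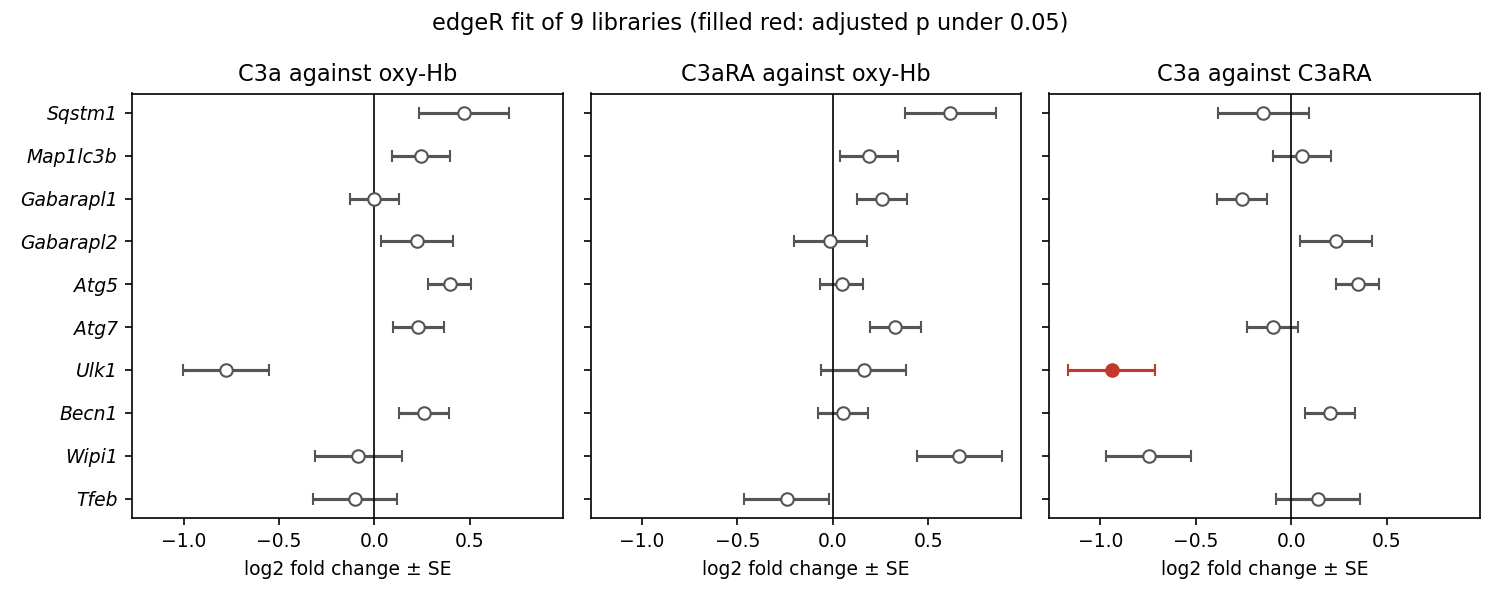
Log2 fold change ± SE of the 10 genes in the edgeR fit of 9 libraries, for C3a against oxy-Hb, C3aRA against oxy-Hb and C3a against C3aRA. Filled red marks an adjusted p under 0.05, which only Ulk1 reached, at -0.94 between the additions.

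For C3aRA against oxy-Hb edgeR called none of the 10, as it called 0.0% of all tested genes, and 3 had an unadjusted p under 0.05, Sqstm1, Atg7 and Wipi1, beside 8.15% of all tested genes. DESeq2, which called 11 of all tested genes (0.0778%), and limma-voom, which called 0, called none of the 10 either. Fitted on the 2 groups alone, edgeR called 603 genes (4.43%), among them 1 of the 10, Sqstm1, which was higher with C3aRA. Without C3a replicate 2 edgeR again called Sqstm1 alone of the 10, and 3.25% of all tested genes. The median over the 10 was 0.17, beside -0.01 over all tested genes, and 8 of the 10 values were positive, or 6 with total count scaling, where Atg5 and Becn1 turned. The authors' deposited table for C3aRA lists 2 of the 10 under an adjusted p of 0.05, Sqstm1 and Atg7, among 715 of its 22935 genes. Their table for C3a lists none of the 10, among 508 genes under that threshold. Groups did not overlap for 4 genes, Sqstm1, Map1lc3b, Atg7 and Wipi1, all higher with C3aRA, where 22.9% of all tested genes did not overlap in all, 11.9% higher and 11.0% lower. For C3a against C3aRA edgeR called Ulk1 alone, 1 of 10, where 6.19% of all tested genes were called. On the 2 groups alone it called none of the 10 and 0.875% of all tested genes, and without C3a replicate 2 it called Ulk1 and Sqstm1, both lower, and 12.5% of all tested genes. DESeq2 called Atg5, Ulk1 and Wipi1, and 10.8% of all tested genes. Groups did not overlap for Atg5, higher with C3a, and for Gabarapl1, Ulk1 and Wipi1, lower with C3a, where 28.8% of all tested genes did not overlap, 14.1% higher and 14.7% lower. The comparisons share libraries, and their values are therefore set side by side and not correlated.

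**Figure D4:**
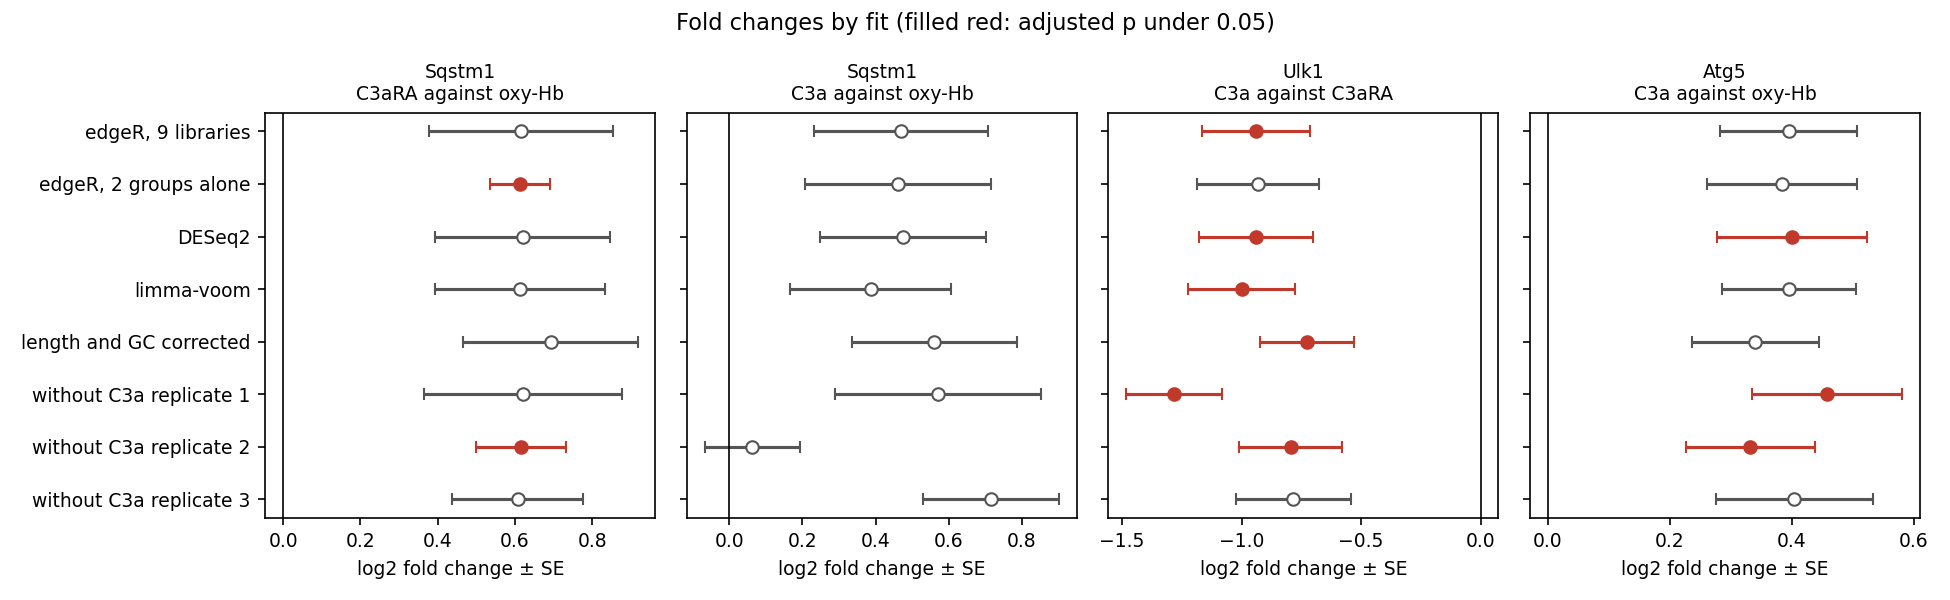
Log2 fold change ± SE of Sqstm1, Ulk1 and Atg5 under 8 fits (rows), with filled red for an adjusted p under 0.05. The Sqstm1 estimate for C3aRA is near 0.61 in most fits while its error narrows on the 2 groups alone, whereas its C3a estimate is 0.063 without C3a replicate 2.

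Around these genes, 59 further genes of the same steps were listed and 56 were tested. With C3a against oxy-Hb, 1 rose and 4 fell by edgeR, where 0.905% of all tested genes were called higher and 3.04% lower. DESeq2 called 10 of the 56 (9.56% of all tested genes) and limma-voom 5 (4.43%). The fit without C3a replicate 2 called 4 higher and 7 lower, where 4.0% and 5.55% of all tested genes were called in these directions. With the length and GC correction the balance turned to 3 higher (Rab7, Nfe2l2 and the ER-phagy receptor gene Tex264) and 2 lower, beside 5.04% and 2.29% of all tested genes. Rab7, the small GTPase that brings autophagosomes to lysosomes, rose to 388 ± 38.4 CPM with C3a, against 288 ± 13.2 CPM in oxy-Hb (log2 fold change 0.43, edgeR adjusted p 0.029). Atg2a, a lipid transfer protein of the growing membrane, fell to 12.5 ± 2.46 CPM, against 28.4 ± 3.94 CPM in oxy-Hb (-1.19, edgeR adjusted p 0.00337). Wdfy3, the large adaptor also called ALFY that links p62 bodies to the membrane, fell to 55.3 ± 16.0 CPM, against 112 ± 14.5 CPM in oxy-Hb (-1.02, edgeR adjusted p 0.00878). Tecpr1 (-0.60, edgeR adjusted p 0.0125) and Plekhm1 (-0.54, edgeR adjusted p 0.012), both of the fusion step, also fell. With the correction for length and GC content Rab7 (0.41), Atg2a (-0.74) and Wdfy3 (-0.54) were still called, while Tecpr1 (-0.25, edgeR adjusted p 0.0831) and Plekhm1 (-0.21, edgeR adjusted p 0.176) were not. On the 2 groups alone the call was lost for Rab7 (edgeR adjusted p 0.133), Tecpr1 (0.0654) and Plekhm1 (0.0552). The other lists' lowest p belonged to Foxo3 (-0.46, edgeR adjusted p 0.0655, or 0.043 without C3a replicate 2, and -0.15 with the correction), Nfe2l2, which encodes NRF2 (0.36, edgeR adjusted p 0.0602), Gabarap (0.37, edgeR adjusted p 0.30, and 0.011 without C3a replicate 2) and Pik3c3, the catalytic lipid kinase (0.31, edgeR adjusted p 0.125, or 0.0479 without C3a replicate 2). Over the 56 genes the median was 0.03, beside 0.00 over all tested genes.

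With C3aRA against oxy-Hb edgeR called none of the 56, nor did DESeq2 or limma-voom, and 7 had an unadjusted p under 0.05, beside 8.15% of all tested genes. Their median was 0.11, beside -0.01 over all tested genes, and 39 of 56 values were positive, or 36 with total count scaling. On the 2 groups alone 4 rose, where 2.48% of all tested genes were called higher. They were Atg12 (0.52, edgeR adjusted p 0.00644), the ER-phagy receptor Retreg1 (0.32, edgeR adjusted p 0.00962), the ATG8-processing protease Atg4a (0.41, edgeR adjusted p 0.0346) and the mitophagy receptor Bnip3l (0.25, edgeR adjusted p 0.0365). In C3a against C3aRA, edgeR called 6 of the 56 lower with C3a and 0 higher in the fit of 9 libraries, where it called 3.32% of all tested genes lower and 2.87% higher, and 20 of the 56 had an unadjusted p under 0.05, beside 24.2% of all tested genes. DESeq2 called 13 (10.8% of all tested genes), among them Vamp8, which was higher (0.62, DESeq2 adjusted p 0.0267, and 0.28 by edgeR without C3a replicate 2), and limma-voom called 5 (5.34%). Stx17 and Traf6 were called higher both without C3a replicate 2, with 8 lower (5.97% of all tested genes higher and 6.54% lower), and with the length and GC correction, with 4 lower (4.9% and 3.16%). The 6 were Atg2a (-1.05), Wdfy3 (-0.83), Epg5 (-0.74), Atg16l2 (-0.60), Tecpr1 (-0.56) and Atg12 (-0.54), with edgeR adjusted p from 0.00796 to 0.0466. Atg12 had 67.5 ± 9.59 CPM with C3a, 98.1 ± 19.9 CPM with C3aRA and 68.2 ± 4.41 CPM in oxy-Hb, whereas Atg2a had 12.5 ± 2.46, 25.8 ± 3.89 and 28.4 ± 3.94 CPM. For Atg12 the C3a and oxy-Hb levels were the close pair, and for Atg2a the C3aRA and oxy-Hb levels. The length and GC correction kept the calls of Atg2a, Wdfy3 and Tecpr1 but not those of Epg5, Atg16l2 and Atg12 (edgeR adjusted p 0.0599, 0.0925 and 0.108), and on the 2 groups alone only Atg2a was called (edgeR adjusted p 0.0466).

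**Figure D5:**
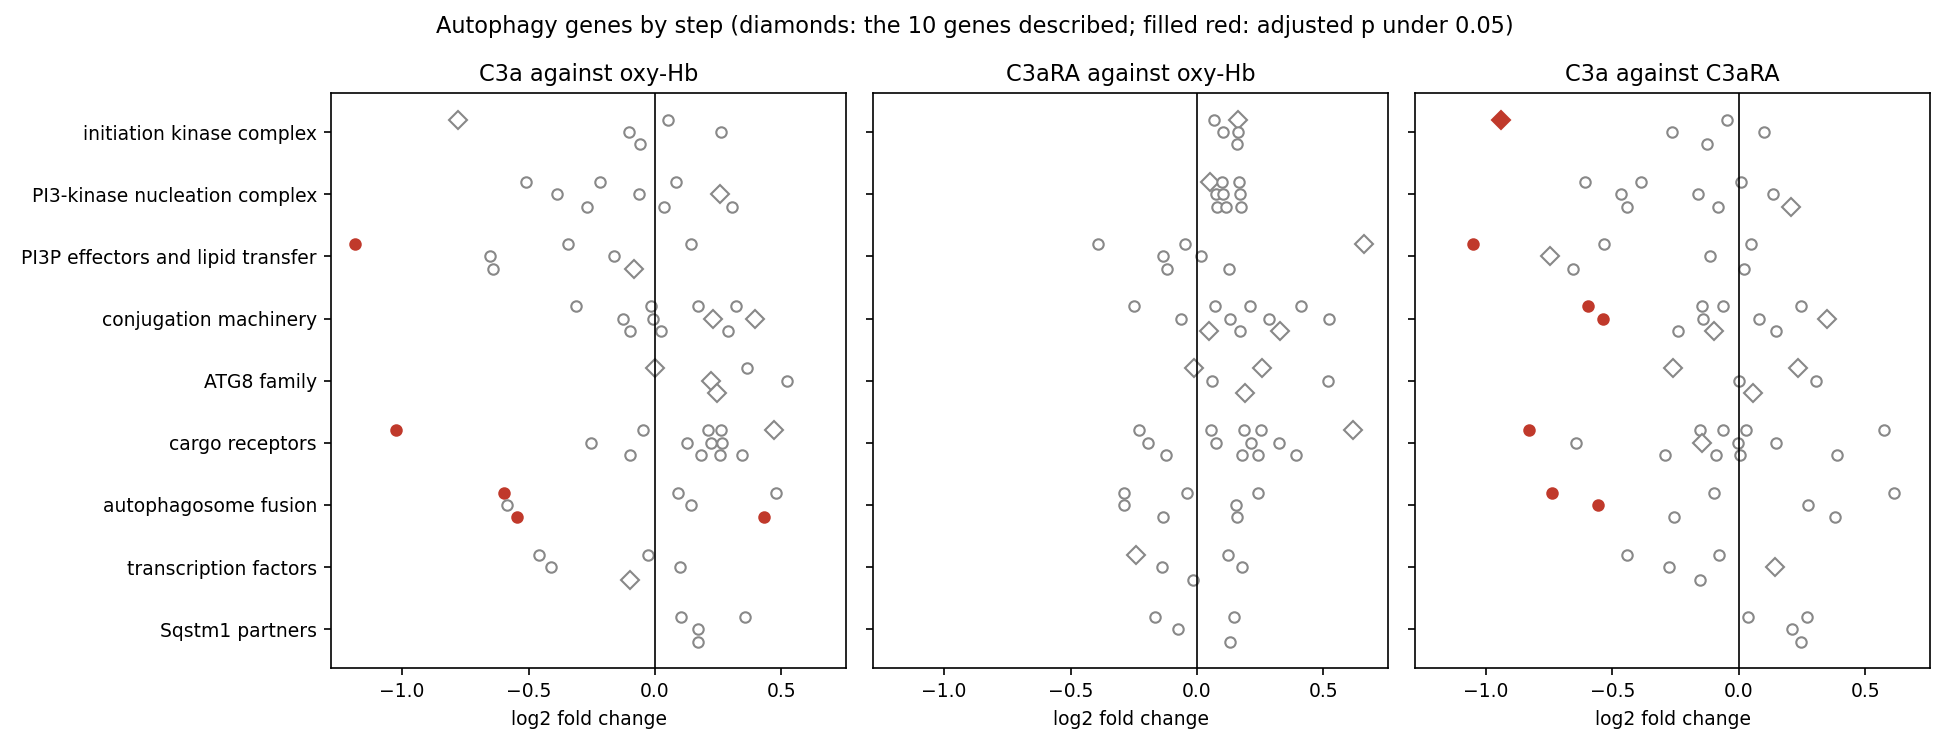
Log2 fold changes of all tested autophagy genes by step of the pathway, for the 3 comparisons. Diamonds are the 10 genes described, circles the 56 others, and filled red marks an adjusted p under 0.05 in the edgeR fit of 9 libraries; for C3a the called circles are Atg2a, Wdfy3, Tecpr1 and Plekhm1 on the left and Rab7 on the right.

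By step, none of the other 4 genes of the initiation complex was called in any comparison by edgeR in the fit of 9 libraries. Ulk2, the relative of Ulk1, had 25.2 ± 4.26 CPM with C3a, 26.0 ± 2.49 CPM with C3aRA and 24.3 ± 1.88 CPM in oxy-Hb, so its groups differed by less than their spread. Rb1cc1, the scaffold also called FIP200, had 130 ± 21.9, 156 ± 9.01 and 139 ± 8.53 CPM. All 9 genes listed for the lipid kinase step were positive with C3aRA, from 0.053 to 0.18, beside a median of -0.01 over all tested genes. With total count scaling Becn1 was the exception, at -0.0094, and none of the 9 was called. All 4 genes listed around Sqstm1 (Keap1, Nfe2l2, Tbk1 and Traf6) were positive with C3a, from 0.10 to 0.36, beside a median of 0.00 over all tested genes. Keap1 (-0.17) and Traf6 (-0.074) were negative with C3aRA. With C3a edgeR called none of the 4 in the fit of 9 libraries. Among them 1 had an unadjusted p under 0.05, beside 24.1% of all tested genes. DESeq2 called Nfe2l2 (9.56% of all tested genes), as did the length and GC correction (5.04% higher). Without C3a replicate 2 edgeR called Nfe2l2 and Traf6 (4.0% higher). Of 115 tested genes that carry the deposited pathway term for animal autophagy, edgeR called 1 higher and 5 lower with C3a (0.905% and 3.04% of all tested genes). DESeq2 called 15 of the 115 (9.56% of all tested genes), and limma-voom 6 (4.43%). With the length and GC correction edgeR called 4 higher and 3 lower (5.04% and 2.29%). With C3aRA edgeR, DESeq2 and limma-voom called none of the 115 in the fit of 9 libraries. There 16 had an unadjusted p under 0.05, beside 8.15% of all tested genes. With C3aRA edgeR called 10 higher and 2 lower on the 2 groups alone, where 4.43% of all tested genes were called. Without C3a replicate 2 it called 8 higher and 2 lower with C3aRA (3.25% of all tested genes). In C3a against C3aRA edgeR called 1 higher and 9 lower (2.87% and 3.32% of all tested genes). It called 0 and 3 on the 2 groups alone (0.875% in either direction) and 7 and 16 without C3a replicate 2 (5.97% and 6.54%). With the length and GC correction it called 7 higher and 9 lower (4.9% and 3.16%). DESeq2 called 21 of the 115 between the additions (10.8% of all tested genes), and limma-voom 9 (5.34%). For C3a against oxy-Hb edgeR called 0 higher and 2 lower on the 2 groups alone (0.72% of all tested genes). Without C3a replicate 2 it called 5 and 8 there (9.55%).

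The 3 genes whose profile over the 9 libraries lay closest to that of Sqstm1, out of 10108 genes averaging 5 CPM or more, were Nat9, Btg1 and Sqor. Their root mean square differences on the log2 scale were 0.14, 0.144 and 0.162, against a median of 0.439 over all genes compared. Since the genes were chosen by this likeness, the features they share with Sqstm1 follow from the choice. Each had the high C3a replicate 2, with 25.2 CPM for Nat9, 117 CPM for Btg1 and 118 CPM for Sqor. Each was also higher in the C3aRA libraries than in oxy-Hb. Btg1, for example, had 78.5, 117 and 68.1 CPM with C3a, 110.5, 94.4 and 96.1 CPM with C3aRA, and 81.0, 73.7 and 71.4 CPM in oxy-Hb alone. The points of such a profile share their libraries and scaling.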

How the data were processed

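RNA of BV2 cells (1.3 ug of total RNA) was sequenced after a SMARTER mRNA-Seq preparation, per the labels' protocols. The authors deposited 2 tables of raw counts per Ensembl gene, oxy-Hb beside 1 addition each, and each deposited row also holds their log2 fold change with its raw and adjusted p-value. Per the submitters' processing notes the builds were GRCm38 and mm10. For the aligner, counter, strand setting and test, the labels and headers used here hold no entry. Reads of overlapping genes on opposite strands can therefore not be told apart. Both tables held the same counts for oxy-Hb (0 differed), so 9 libraries entered 1 fit.

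In R 4.3.3, filterByExpr at a minimum count of 10 left 14146 genes. They were scaled with TMM, fitted with 1 coefficient per group and tested with edgeR 4.0.16 (quasi-likelihood, robust). P-values were adjusted over all tested genes by Benjamini-Hochberg, with calls at 0.05. The common biological coefficient of variation was 15.8%. DESeq2 1.42.0, limma-voom (limma 3.58.1), other scalings, filters, a replicate block, a spline correction for length and GC of transcripts (known for 99.9% of tested genes, GENCODE annotation of GRCm38), fits of the 2 groups alone and fits without 1 library were alternatives. The scripts were tested on simulated data. Levels are TMM-scaled CPM with SDs, except the floor, marker and ribosomal values, which use unscaled totals. Fold changes carry SEs, and precision is that of counting and of 3 libraries per group. Levels per kilobase use the APPRIS principal transcript.

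The 10 genes, the wider lists and the tests were chosen with earlier results of these data known. The wider genes named were mostly those called in the fit of 9 libraries, at most 12 per comparison, and genes with the lowest p of their list, not all of which were named. Tex264, Atg4a, Bnip3l, Vamp8, Stx17 and Traf6 were named for calls in other fits. Ulk2, Keap1 and Tbk1 were named to describe their step or list. A chi-square between the counts of replicates averaged 5.54 to 10.9 per gene except between C3a replicate 2 and its companions (71.0 and 63.6), so no pair agreed within sampling noise.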

Additional observations from a re-analysis of the deposited data

Results flagged for a closer look

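Ulk1 was flagged because its response to the additions differed between them. The C3a effect minus the C3aRA effect, both over the same oxy-Hb libraries, was -0.94 on the log2 scale (edgeR adjusted p 0.0299), with -0.78 for C3a and 0.16 for C3aRA. All 3 C3a libraries lay below all 3 C3aRA libraries. The cause was not tested.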

How the results depend on the processing

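Of 650 values of the 10 genes under alternatives, 575 kept direction and side of the threshold, 22 newly passed it, 6 no longer did and 47 changed sign, all of the 47 uncalled in the fit of 9 libraries. The causes were not tested. Counts per library were lowest for Ulk1, Wipi1 and Tfeb, at 57 to 241, which limits what their depth can resolve. The main fit did not pair the samples by replicate number. Correlations of same-numbered deviations between groups ran from -0.036 to 0.158, and 2 of 9 passed 0.1. Between libraries with different numbers they ran from -0.134 to 0.081, and 0 of 18 passed 0.1. These values cannot exclude a weak pairing. The replicate block alone called 1 of the 10 genes (Ulk1, -0.81, edgeR adjusted p 0.0305) for C3a against oxy-Hb. The share of all tested genes called by the block alone is not given here, so that count has no background. For C3a against oxy-Hb the block with the length and GC correction called 1 of the 10 and 1523 genes. In that fit 1 gene was called for C3aRA against oxy-Hb and 1448 for C3a against C3aRA.

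Genes called for C3a against oxy-Hb, 558 in the fit of 9 libraries, were 1033 without a filter, 1353 with DESeq2, 99 on the 2 groups alone, 1037 with the length and GC correction and 54 to 1638 in fits that left out 1 library. Of the 558, 128 were higher, against 34 of 698 with total count scaling and 713 of 1037 with the length and GC correction, which moved the median of all genes by 0.10. Of the 10 genes, 1 was called with total count scaling, 1 without a filter, 2 with DESeq2 and 0 to 2 with 1 library left out. For C3aRA against oxy-Hb the 0 genes became 8 without a filter, 11 with DESeq2, 603 on the 2 groups alone and 0 to 475 with 1 library left out. Of the 10, 1 was called on the 2 groups alone and 0 to 1 with 1 library left out. For C3a against C3aRA the 876 genes became 1521 with DESeq2, 118 on the 2 groups alone and 53 to 1827 with 1 library left out. Of the 10, 2 were called with a mean of at least 5 CPM, 3 with DESeq2, 0 on the 2 groups alone and 0 to 2 with 1 library left out. The number of all genes called with a mean of at least 5 CPM is not given here.

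Sign changes for C3a against oxy-Hb with all 9 libraries were confined to 3 genes. Gabarapl1, at -0.00018, became 0.0049 with DESeq2 size factors or limma-voom, 0.0052 with upper quartile scaling, 0.0050 with DESeq2, 0.0032 with the block, 0.054 with the block and correction and 0.051 with the correction. Wipi1 became 0.00082 with the block and correction and 0.0039 with the correction, and Tfeb 0.22 with either. For C3aRA against oxy-Hb, Gabarapl2 became 0.00059 with limma-voom, 0.0050 with the block, 0.048 with the block and correction and 0.026 with the correction, and with total count scaling Atg5 became -0.016 and Becn1 -0.0094. Atg7 in C3a against C3aRA became 0.0029 with the correction. With 1 library left out, C3a against oxy-Hb ranged from -0.0076 to 0.40 for Map1lc3b, -0.089 to 0.10 for Gabarapl1 and -0.053 to 0.40 for Gabarapl2 and C3aRA against oxy-Hb from -0.14 to 0.093 for Gabarapl2, -0.025 to 0.11 for Atg5 and -0.011 to 0.15 for Becn1, and C3a against C3aRA from -0.55 to 0.11 for Sqstm1, -0.20 to 0.21 for Map1lc3b, -0.040 to 0.41 for Gabarapl2, -0.26 to 0.021 for Atg7 and -0.060 to 0.29 for Tfeb. Chosen after seeing the data, 2 alternatives left out C3a replicate 2 with the correction or on the 2 groups alone. With the correction they called 1758, 1206 and 1946 genes and 0, 5 and 1 of the 10 for C3a against oxy-Hb, C3aRA against oxy-Hb and C3a against C3aRA, where the 5 were Sqstm1, Map1lc3b, Gabarapl1, Atg7 and Wipi1, all higher. On the 2 groups they called 1101 and 1938 genes and 0 and 2 of the 10 for C3a against oxy-Hb and C3a against C3aRA. Under them the sign changes gave -0.011 to 0.083 for Map1lc3b, -0.093 to 0.020 for Gabarapl1, -0.091 to -0.056 for Gabarapl2, -0.019 to 0.060 for Wipi1 and -0.089 to 0.32 for Tfeb in C3a against oxy-Hb; 0.035 for Gabarapl2 in C3aRA against oxy-Hb; -0.20 to -0.16 for Map1lc3b and -0.13 to -0.043 for Gabarapl2 in C3a against C3aRA.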

Other observations

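Genes of mitophagy, the removal of mitochondria, were described by the deposited pathway term, which 59 tested genes carried, some of them among those above. With C3a against oxy-Hb edgeR called 1 of the 59, Rab7, which was higher, where 3.94% of all tested genes were called. Without C3a replicate 2 it called 2 higher and 4 lower (9.55% of all tested genes). DESeq2 called 5 of the 59 there (9.56% of all tested genes), and limma-voom 1 (4.43%). For C3aRA against oxy-Hb edgeR called none in the fit of 9 libraries, nor did DESeq2 or limma-voom. There 7 had an unadjusted p under 0.05, beside 8.15% of all tested genes. On the 2 groups alone 5 were higher, Bnip3l, Eif2ak3, Sp1, Sqstm1 and Tbc1d15, where 2.48% of all tested genes were called higher. In C3a against C3aRA edgeR called 1 higher and 2 lower, among them Ulk1, where 6.19% of all tested genes were called. It called 0 on the 2 groups alone (0.875% of all tested genes) and 1 higher and 7 lower without C3a replicate 2 (12.5%). DESeq2 called 7 of the 59 between the additions (10.8% of all tested genes), and limma-voom 3 (5.34%). The median log2 fold changes over the 59 were 0.04, 0.05 and 0.00 in these comparisons, beside 0.00, -0.01 and 0.01 over all tested genes.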
